A study of Saccharomyces cerevisiae with 6 samples.

Results

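Hexose uptake in Saccharomyces cerevisiae is carried by a family of plasma membrane transporters encoded by the HXT genes, and 8 of them are described here: HXT1, HXT2, HXT3, HXT4, HXT5, HXT7, HXT8 and HXT10. They were chosen by name, each has a single probe set that the platform annotation gives to that gene alone, and they are 8 of 5449 genes tested. Expression was measured on 6 Affymetrix yeast arrays, 3 hybridised with RNA of a gcr2 deletion strain and 3 with RNA of wild-type FY4, a prototrophic strain related to the reference strain S288C. Both were grown in batch on glucose minimal medium at 30 °C and sampled in exponential phase. A strain name, FY4, is given for the wild-type samples only, and the labels do not say how GCR2 was removed, how many mutant clones were used or whether the replicates were separate cultures. The p-values therefore reflect only how far these samples spread, which may be technical.

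Glucose enters the yeast cell by facilitated diffusion, and the cell fits its set of carriers to the sugar supply. Low-affinity carriers serve when glucose is abundant, and high-affinity carriers when it is scarce. The sensors Snf3 and Rgt2 report external glucose and, through the corepressors Mth1 and Std1, release the repressor Rgt1 from HXT promoters, while the repressor Mig1 holds several high-affinity genes down at high glucose. Gcr2 is a coactivator that works with the DNA-binding protein Gcr1 on glycolytic genes, and the comparison asks which transcripts depend on it.

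Values are probe-set intensities as deposited, and a change is the log2 value in the deletion minus that in wild type, with the standard error (SE) of limma. Genes with an adjusted p under 0.05 were called (limma, two-sided, Benjamini-Hochberg over the 5449 genes), and only these are said to have risen or fallen. GCR2 itself was at 4.59 ± 0.15 in the deletion and 11.11 ± 0.05 in wild type (log2 intensity, mean ± SD, n = 3 arrays each). It was under background on all 3 deletion arrays and at least 27.5-fold lower there. Background was set by probe sets taken to be of another yeast species, and on each array 96.8% to 97.9% of tested genes exceeded it. Of 7 genes specific to mating type a, 2 were called higher, and the list's summed intensity was 56474 to 66643 in the deletion and 51588 to 62955 in wild type. Of 4 genes of mating type alpha, 1 was called higher, with sums of 1960 to 2025 in the deletion and 1571 to 1847 in wild type. For comparison, 14.1% of all tested genes were called higher.

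Among the 8 transporter genes 1 was called higher, 3 were called lower and 4 did not pass the test. One of the 3 lower calls, HXT8, was under background on all 6 arrays and is not read as a change in transcript level. HXT1, a low-affinity carrier, went up, and the high-affinity carriers HXT2 and HXT7 went down, each by more than 2-fold. HXT3, HXT4 and HXT5, all above background on every array, differed by 0.07 or less. Of all tested genes 22.5% were called, 14.1% higher and 8.35% lower, and 0.496% were called lower by at least 2-fold. The median change was 0.00 over the 8 genes, against 0.02 over all tested genes. In these bulk RNA samples, fewer cells with a transcript and less of it per cell cannot be told apart.

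**Figure D1:**
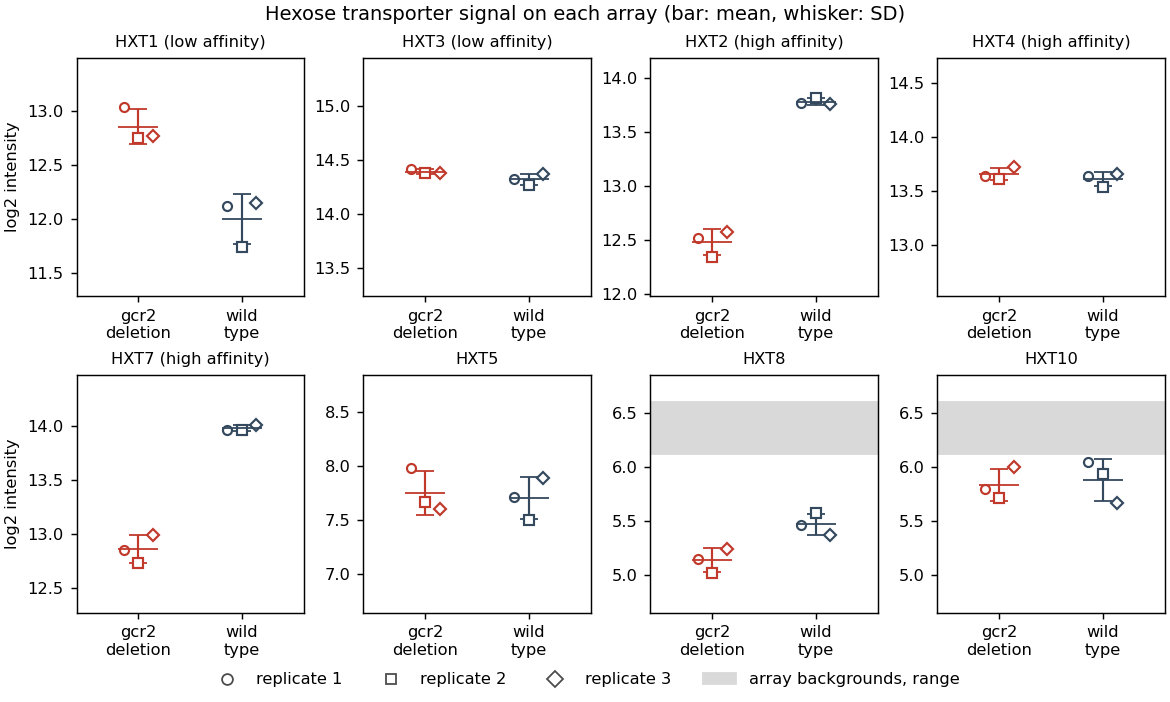
Log2 intensity of each transporter gene on the 3 gcr2 deletion arrays (red) and the 3 wild-type arrays (blue), with the mean as a bar and the SD as a whisker; every vertical axis spans the same range of 2.2 log2 units. HXT1 lies higher on all deletion arrays, HXT2 and HXT7 lie lower, and HXT8 and HXT10 stay under the backgrounds of the arrays (grey).

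HXT1 codes for the low-affinity carrier that is most strongly induced by high glucose. Its probe set read 8433, 6886 and 6981 on the deletion arrays, against 4440, 3424 and 4552 on the wild-type arrays. The groups did not overlap, and wild-type replicate 2 held the lowest value. On the log2 scale the means were 12.85 ± 0.16 in the deletion and 12.00 ± 0.23 in wild type (SD, n = 3 each). HXT1 rose 1.80-fold (change 0.85, SE 0.14, limma adjusted p = 0.0105). Larger rises were called for 32 genes. The rise was 0.72 to 0.92 when any single array was left out, with adjusted p between 0.0153 and 0.0422.

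HXT3 codes for the other low-affinity carrier, which is induced by glucose over a wide range of concentrations. It read 21912, 21368 and 21319 on the deletion arrays, against 20552, 19707 and 21109 on the wild-type arrays. Every deletion value lay above every wild-type value, but by little. The change was 0.07, with a 95% interval from -0.03 to 0.18, and was not called (adjusted p = 0.248). Groups that do not overlap were found for 5 of the 8 transporters and for 45.2% of all tested genes. Only 97 tested genes had a brighter mean than HXT3, and whether a signal ceiling limited its change was not tested.

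HXT2 codes for a high-affinity carrier that is induced when glucose is low. Its intensities were 5855, 5212 and 6119 on the deletion arrays, against 13993, 14456 and 13894 on the wild-type arrays. The groups lay far apart compared with the spread within either. Means were 12.48 ± 0.12 in the deletion and 13.78 ± 0.03 in wild type (SD, n = 3 each). HXT2 fell by 1.30 (SE 0.07, limma adjusted p = 0.000319), which is 2.47-fold lower. Of all genes called lower, 14 fell further.

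HXT7 codes for a high-affinity carrier nearly identical to that of its neighbour HXT6, and both are repressed by high glucose. Its probe set, ending _s_at, is of a type that can bind transcripts of related genes, and HXT6 was not tested here, so the signal may hold transcripts of both. It read 7363, 6778 and 8151 on the deletion arrays, against 15915, 15985 and 16514 on the wild-type arrays. All wild-type arrays lay within a narrow range, and the deletion arrays lay well under it. HXT7 was at 12.86 ± 0.13 in the deletion and 13.98 ± 0.03 in wild type (SD, n = 3 each). It fell by 1.12 (SE 0.07, limma adjusted p = 0.000647), 2.18-fold lower. It is the only one of the 8 measured by a probe set ending _s_at or _x_at.

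HXT4 codes for a carrier of intermediate to high affinity that, like HXT2, is induced at low glucose. It read 12736, 12544 and 13484 on the deletion arrays, against 12773, 11893 and 12946 on the wild-type arrays. The groups overlapped. The change of 0.04 had a 95% interval from -0.08 to 0.17 (adjusted p = 0.578). The interval lies far from the changes of HXT2 and HXT7.

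**Figure D2:**
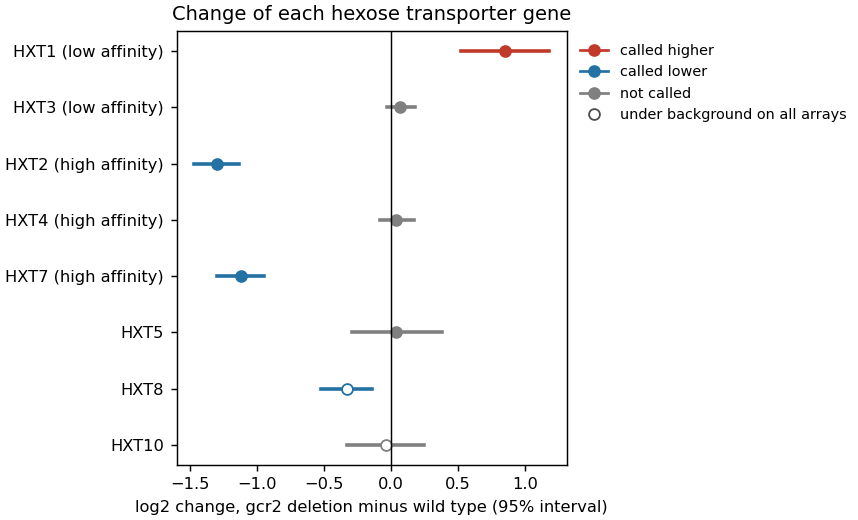
Log2 change of each of the 8 transporter genes, gcr2 deletion minus wild type, with its 95% interval. HXT1 lies at 0.85, HXT2 at -1.30 and HXT7 at -1.12, the intervals of HXT3, HXT4, HXT5 and HXT10 include 0, and open symbols mark genes under background on all 6 arrays.

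HXT5 codes for a carrier of moderate affinity known to be expressed in slow growth, starvation and stress rather than by the glucose level. Its signal was 252, 202 and 194 on the deletion arrays, against 210, 181 and 237 on the wild-type arrays, above background on each. The groups overlapped, and the change was 0.04 with a 95% interval from -0.29 to 0.38 (adjusted p = 0.835). HXT5 and HXT1 varied most between replicates, with a pooled SD within groups of 0.20 for each, above that of 89% of tested genes. In HXT1, HXT3 and HXT5 alike, deletion replicate 1 held the highest value of its group and wild-type replicate 2 the lowest of its own.

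HXT8 and HXT10 code for carriers that can move hexoses when they are overproduced and are little expressed in most conditions. Both were under background on all 6 arrays. HXT8 read 35.4, 32.5 and 37.9 on the deletion arrays, against 44.2, 47.6 and 41.4 on the wild-type arrays. HXT8 was called lower (change -0.33, SE 0.08, adjusted p = 0.0302), but no fold is given because neither group had a signal above background. The call was lost when any of 5 of the 6 arrays was left out, with an adjusted p of up to 0.0899. HXT10 read 55.4, 52.4 and 63.9 on the deletion arrays, against 65.7, 60.8 and 50.5 on the wild-type arrays. The HXT10 groups overlapped, and the gene was not called (change -0.04, adjusted p = 0.829).

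Low- and high-affinity genes were then set side by side on each array, as deviations from the wild-type mean of each gene. The mean of HXT1 and HXT3 minus the mean of HXT2, HXT4 and HXT7 was 1.36, 1.30 and 1.11 on the deletion arrays and 0.06, -0.14 and 0.08 on the wild-type arrays. It averaged 1.26 ± 0.13 in the deletion and 0.00 ± 0.12 in wild type (SD, n = 3 each). No p is given for it, since the genes were grouped with their changes known. The difference was not shared evenly within either class. HXT1 alone exceeded HXT2 by 2.15 and HXT7 by 1.97 in the deletion, whereas it exceeded HXT4 by 0.81. In the low-affinity class the change of HXT1 was 0.85 and that of HXT3 0.07. Of the 3 high-affinity genes, 2 fell and HXT4 was not called.

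**Figure D3:**
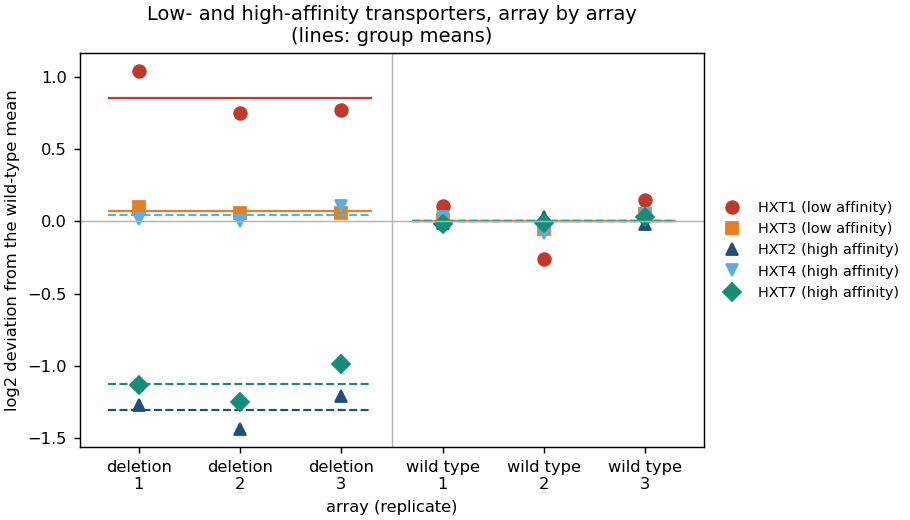
Log2 deviation of HXT1, HXT3, HXT2, HXT4 and HXT7 from the wild-type mean of each gene, on each deletion array (left) and wild-type array (right); lines are group means. On the deletion arrays HXT1 lies between 0.75 and 1.04, HXT2 between -1.44 and -1.21, HXT7 between -1.25 and -0.99, and HXT3 and HXT4 lie near 0.

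RMA gives all arrays the same distribution of intensities, so every change is relative to the bulk of the signal. Control transcripts of bacterial origin (poly-A spike-ins, 24 probe sets) were at 7.20 ± 0.25 in the deletion and 8.11 ± 0.41 in wild type (log2 intensity, SD, n = 3 each). Centring each array on them raised every change by the same amount, and the median over all tested genes was then 0.93, a shift of 0.91. On that scale HXT1 was higher by 1.76 (adjusted p = 5.73e-06), HXT3 by 0.98, HXT4 by 0.95 and HXT5 by 0.95, all called. HXT2 then differed by -0.40 (adjusted p = 0.217) and HXT7 by -0.22 (adjusted p = 0.501), neither of them called. The falls of HXT2 and HXT7 are thus falls relative to the other transcripts, whereas the difference of 1.26 between the affinity classes is by construction the same on both scales. Falls smaller than 0.91 that are named for other genes turn to the opposite sign on the spike-in scale.

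In the gene order of assembly R64, used for neighbours only, HXT4, AHT1, HXT1 and HXT5 follow each other, and HXT7 lies next to HXT6 with HXT3 close by. HXT1 rose by 0.85, while HXT4 and HXT5 on its sides both differed by 0.04 and were not called; AHT1 was not tested here. HXT7 fell by 1.12 and HXT3 in the same cluster differed by 0.07. Of the 16 other tested genes within 2 places of a transporter gene, 5 were called (31.2%, against 22.5% of all tested genes). Near HXT8, YJL213W and the oligopeptide transporter gene OPT1 fell by 0.33 and 0.67. ADI1 near HXT2, WWM1 near HXT10 and SFB3 near HXT5 rose by 0.40, 0.30 and 0.19. Leaving out 1 array ended the call of YJL213W in 3 of 6 cases, of ADI1, WWM1 and SFB3 in 4 each, and of OPT1 in 0.

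Other members of the family did not pass the test. Of 10 further genes listed, the 6 HXT genes HXT9, HXT11, HXT13, HXT14, HXT15 and HXT17 and the galactose permease gene GAL2 were tested; HXT6, HXT12 and HXT16 were not. By limma 0 of these 7 were called, against 22.5% of all tested genes, and 1, HXT9, had an unadjusted p under 0.05. HXT11, HXT13, HXT14 and HXT15 were under background on all 6 arrays. The probe set used for HXT13 ends in _x_at, and those of HXT15 and HXT17 in _s_at, so related transcripts may share their signals. A second HXT13 set, ending _at, differed by 0.12, against -0.22 by the set used, and was also under background on all 6 arrays. HXT17 was above background on all 6 arrays by its _s_at set, but under it on all 6 by a second one, ending _x_at. HXT9 was at 7.73 ± 0.29 in the deletion and 7.30 ± 0.18 in wild type (change 0.44, adjusted p = 0.107; 0.0465 without deletion replicate 2), and its second probe set, ending _s_at, differed by 0.26. The list's median change was -0.14. GAL2 differed by less than 0.01, at 6.84 ± 0.03 in the deletion and 6.84 ± 0.06 in wild type.

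Genes that control HXT transcription were compared next, against the share of 22.5% called over all tested genes. Among 10 genes of the glucose sensors and the Rgt1 pathway 2 fell, 1 rose and 7 did not pass, a share near that background; the median change was 0.06. MTH1, the corepressor that acts with Rgt1, fell by 0.77 (SE 0.15, adjusted p = 0.0199), to 10.60 ± 0.28 in the deletion, against 11.37 ± 0.15 in wild type. SNF3, the high-affinity glucose sensor, fell by 0.23 (adjusted p = 0.0425), and YCK1, a casein kinase of the sensor pathway, rose by 0.19 (adjusted p = 0.0329). RGT2, the low-affinity sensor, differed by 0.17 and was not called (adjusted p = 0.0957). The repressor gene RGT1 itself differed by 0.13 (adjusted p = 0.172). Leaving out single arrays ended the call of SNF3 in 6 of 6 cases, of YCK1 in 5 and of MTH1 in 3 (deletion replicates 1 and 2 and wild-type replicate 1), so that none of these 3 calls held in every case.

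Of 14 regulators of glucose repression 5 fell, 2 rose and 7 did not pass, and the median change was 0.08. Over all tested genes 8.35% were called lower and 14.1% higher. MIG1 and MIG2, repressors of high-affinity transporter genes, fell by 0.58 (adjusted p = 0.00371) and 0.46 (adjusted p = 0.0117). CAT8 and ADR1, activators for growth without glucose, fell by 1.35 and 1.04. The activator group around Gcr2 held 6 genes, of which 4 did not pass. GCR2 is the deleted gene, so its fall was fixed by the design, and its partner GCR1 fell by 0.95. Of 7 tested sugar genes that Mig1 is known to repress or that serve maltose use, GAL3 and GAL1 rose by 0.46 and 0.35, MAL33 fell by 0.79 and 4 did not pass. SUC2, the invertase gene and a classic target of Mig1, differed by 0.01 (95% interval from -0.14 to 0.16).

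**Figure D4:**
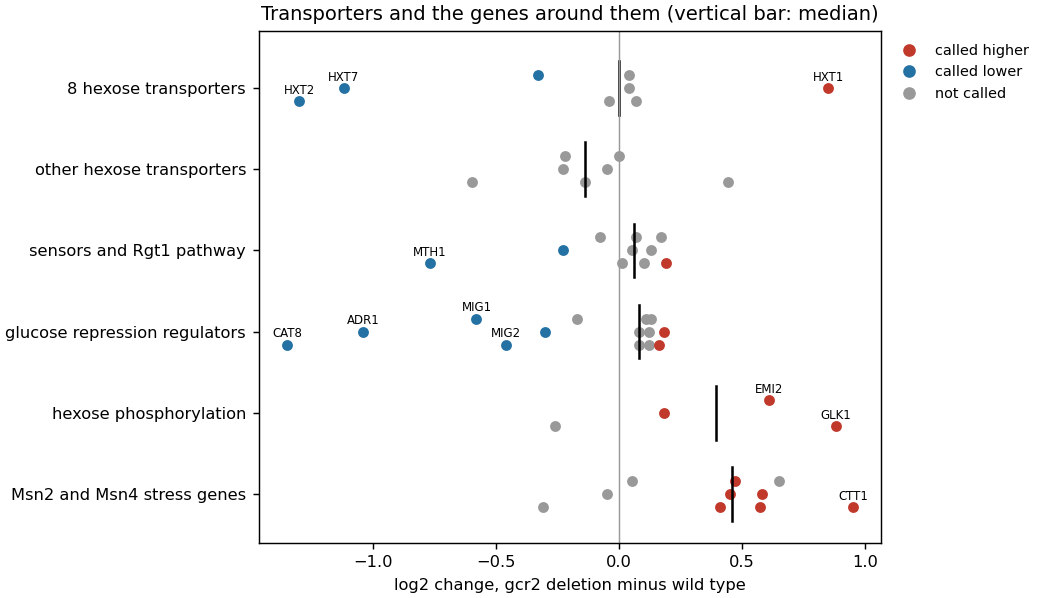
Log2 changes, gcr2 deletion minus wild type, of the 8 transporter genes and of 5 lists around them, each point a gene and each vertical bar a list median. The transporters spread from -1.30 to 0.85 around a median of 0.00, the hexose phosphorylation genes have a median of 0.39 and the stress genes one of 0.46.

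Directly after uptake, glucose is phosphorylated. Of the 4 genes for this step 3 rose and 1 did not pass, where 14.1% of all tested genes were called higher. The median change was 0.39, against 0.02 over all tested genes. GLK1, glucokinase, rose by 0.88 (SE 0.10, adjusted p = 0.00352), EMI2, a paralogue of GLK1, by 0.61 and HXK2, the main hexokinase on glucose, by 0.18. HXK1, the hexokinase repressed by glucose, differed by -0.26 (adjusted p = 0.0703). Without 1 array the call of HXK2 was lost in 5 of 6 cases and that of EMI2 in 3 (deletion replicates 2 and 3 and wild-type replicate 1), and that of GLK1 in 0. Among 9 other genes listed as sugar porters only VPS73 was called, higher by 0.33, a call lost without any 1 of 5 of the 6 arrays; GEX1, counted in that list, codes for a glutathione exchanger. The inositol carrier ITR1 differed by -0.03.

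HXT5 is known to be expressed together with stress genes under the activators Msn2 and Msn4. Of 10 such genes 6 rose and 4 did not pass, where 14.1% of all tested genes were called higher. The median change was 0.46, against 0.02 over all tested genes. The catalase gene CTT1 rose by 0.95 (adjusted p = 0.00936), and the trehalose synthesis genes TPS1 and TPS2 rose by 0.41 and 0.58. GRE3, an aldose reductase gene, rose by 0.47 (adjusted p = 0.00248). GSY2 and SOL4 rose by 0.45 and 0.57, with limma adjusted p of 0.0473 and 0.0498, close to the threshold. Their calls were not rechecked with single arrays left out. The 4 that did not pass differed by 0.65 (HSP12), -0.31 (GPH1), -0.05 (DDR2) and 0.05 (PGM2). HSP26, a small heat shock protein gene outside this list, fell by 1.37 (limma adjusted p = 0.000253). The calls of TPS1 and TPS2 were each lost in 4 of 6 cases when 1 array was left out, and those of CTT1 and GRE3 in 0. HXT5, at 0.04, was not called, and its difference from these genes was not tested.

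The genes most alike to each changed transporter were found by the root mean square difference, over the 6 arrays, between deviations from the wild-type mean, among 5316 genes above background. HXT1 was closest to STE3 (0.12), the pheromone receptor gene of alpha cells, INM1 (0.13), for inositol monophosphatase, and YHK8 (0.13). HXT2 was closest to HSP26 (0.09), a small heat shock protein gene, DAL5 (0.10), an allantoate permease gene, and MUP1 (0.12), a methionine permease gene. HXT7 was closest to ICS2 (0.10), YAR066W (0.10) and ADR1 (0.11). The probe set of YAR066W ends in _s_at, so related transcripts may share its signal. The differences in parentheses are on the log2 scale, and with 2 groups they mainly measure how alike the size of the change was.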

How the data were processed

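The authors deposited 1 table of probe-set intensity values on a linear scale for 10928 probe sets and 6 arrays. Per the submitters' processing notes these came from R 2.8.0, the affy package and RMA, which corrects background, equalises distributions and summarises probes. No source used here names the genome build behind the probes. Here log2 was taken with no pseudocount. Probe sets with exactly 1 annotated gene (7244) were matched by gene identifier to the RefSeq genes of assembly R64, which held 5498 of them. The 1746 others matched no gene there and were taken to belong to another yeast species, which was not checked. The brightest probe set per gene left 5449 genes; each of the 8 transporters had only 1. Background was set at percentile 95 of those unmatched probe sets, at intensities from 69.6 to 97.1 per array, or 76.7 for means. Genes of low signal were kept.

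The groups were compared with limma 3.58.1 in R 4.3.3 (lmFit, then eBayes, with group as the only term). The fit was tried on simulated data with noise independent between arrays, which does not check deviations that arrays share. Precision is limited by the number of arrays; 95% intervals had a median half-width of 0.15. The 8 genes and the 10 lists were chosen with earlier results of these data known. Up to 4 genes per list with the smallest adjusted p were named by rule, together with the 3 genes most alike to each called transporter that changed by at least 0.5. Outside that rule, chosen after their values were seen, are RGT1, SUC2, ITR1, OPT1, YJL213W, ADI1, WWM1, SFB3, HXT14, HXT17, GAL2, GSY2, SOL4, HSP12, GPH1, DDR2 and PGM2. Alternatives were a replicate block, single arrays left out, other normalizations and probe choices, another prior and stricter thresholds. Promoter and protein sequences were not analysed here.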

Additional observations from a re-analysis of the deposited data

How the results depend on the processing

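Of 17 alternatives, HXT1 lost its call in 2, at an adjusted p under 0.01 and with limma's treat against 1.5-fold (change 0.85 in both), and 0 transporters were then called higher. HXT2 and HXT7 lost their calls only with poly-A centring (changes -0.40 and -0.22). That setting also called HXT3 (0.98), HXT4 (0.95), HXT5 (0.95) and HXT10 (0.86, reversed), turned HXT8 to 0.57, and gave 5 transporters higher and 0 lower; over all genes it gave 4974 higher and 8 lower. It turned the sign of GAL2 (0.91), MTH1 (0.13), SNF3 (0.67), MIG1 (0.33), MIG2 (0.45), MAL33 (0.12), HXK1 (0.64), ITR1 (0.88), OPT1 (0.24) and YJL213W (0.58). These follow from the constant added to every gene. Why the poly-A controls differed was not tested.

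HXT8 lost its call with the replicate block (-0.33, adjusted p = 0.0894), with wild-type replicate 3 and deletion replicate 1 left out together (-0.39), with quantile normalization over tested genes (-0.21), with a trended and robust prior (-0.33) and at both stricter thresholds (-0.33). Removing dim genes removed HXT8 and HXT10, and removing probe sets ending _s_at or _x_at removed HXT7, so no value was had there. Without single arrays, the changes ranged from 0.72 to 0.92 for HXT1, -1.35 to -1.24 for HXT2, -1.19 to -1.06 for HXT7 and -0.39 to -0.28 for HXT8. The number of genes called ranged from 239 to 751 higher and 167 to 474 lower without single arrays, against 769 and 455 with all arrays. It was 199 and 129 with wild-type replicate 3 and deletion replicate 1 left out together, 224 and 123 at an adjusted p under 0.01, and 16 and 14 with treat. The difference between affinity classes was 1.19 to 1.33 without single arrays, and 2.15, 0.81 and 1.97 for HXT1 alone against HXT2, HXT4 and HXT7.

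Deviations of same-numbered arrays correlated across genes at 0.53, -0.17 and -0.44, so arrays did not match by number throughout. Within a group of 3 arrays the deviations are tied to each other. These correlations therefore cannot settle whether samples were handled in numbered pairs. Deletion replicate 1 correlated best with wild-type replicate 1 (0.53). Deletion replicate 2 correlated best with wild-type replicate 3 (0.58) and deletion replicate 3 with wild-type replicate 2 (0.49), so arrays of different groups did deviate together, for reasons not tested. A replicate block groups arrays by number, so it cannot account for deviations shared by arrays of different numbers. With the replicate block 433 genes were called higher and 300 lower, and HXT1, HXT2 and HXT7 remained called at adjusted p = 0.0255, 0.00958 and 0.009. The block ended the calls of MTH1 (0.0569), SNF3 (0.0964), YCK1 (0.0662), HXK2 (0.0761), VPS73 (0.0697), TPS1 (0.0502), YJL213W (0.0635), ADI1 (0.0569), WWM1 (0.0887) and SFB3 (0.0517), with the adjusted p in parentheses. With 3 arrays a group, changes of genes near background such as HXT8 and HXT10 cannot be read as changes in transcript level.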
